A study of Mus musculus with 12 samples.

Results

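The serotonin receptor family was examined through 10 of its genes, *Htr1a*, *Htr1b*, *Htr2a*, *Htr2c*, *Htr3a*, *Htr4*, *Htr5a*, *Htr5b*, *Htr6* and *Htr7*, which were found by gene symbol among the 55471 Ensembl genes of the count table. Of these 10 genes, 9 passed the filter on low counts and were tested together with the other genes that passed, 19578 in all, and *Htr5b* fell below it. RNA came from primary hippocampal neurons of wild-type CD1 mouse embryos at embryonic day 17 from litters of mixed sex, and was sequenced as stranded total RNA from a very small input. All cultures received LNA gapmers, short antisense oligonucleotides that direct RNase H to a nuclear RNA, packed in lipid nanoparticles at DIV 7 (days in vitro), and were collected at DIV 10. The 6 control libraries received a gapmer without a known target and the 6 *Neuid* KD libraries a gapmer against the neuronal lncRNA *Neuid*, and no untreated culture is among these samples. The comparison asks how the expression of each receptor gene differs between the groups. The same gapmer sequence was used for all libraries of a group. Effects of less *Neuid* and of the gapmer sequence itself therefore cannot be told apart. Nothing in the labels says whether libraries of a group came from separate litters, so the p-values measure the spread between these libraries, which may be technical.

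Serotonin is released in the hippocampus by fibers that originate in the raphe nuclei, and hippocampal cells respond to it through many receptors. All but one of the receptor classes are coupled to G proteins. The 5-HT1 and 5-HT5A receptors act mainly through inhibitory G proteins that lower cAMP and can open GIRK potassium channels. The 5-HT2 receptors act through Gq and phospholipase C, and the 5-HT4, 5-HT6 and 5-HT7 receptors act through stimulatory G proteins that raise cAMP. The 5-HT3 receptor is the exception, a cation channel opened by serotonin, of which *Htr3a* encodes the obligatory subunit.

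The depth was 18002585 to 30914714 reads in the control and 11152556 to 30573480 reads in the *Neuid* KD libraries. *Neuid* (Gm10419) ranged from 25.97 to 31.01 CPM (reads scaled by the TMM library size) in control and from 6.32 to 9.55 CPM in *Neuid* KD (log2 fold change -1.81, adjusted p = 1.3e-10). Every adjusted p below comes from the quasi-likelihood test of edgeR unless another tool is named. The libraries differed in their reads on 1503 chemosensory receptor genes, which served as a measure of background, and these summed to between 24.8 and 629 CPM in control and between 25.5 and 583 CPM in *Neuid* KD. At least 100 CPM was reached by control replicates 1, 2, 4 and 6 and by *Neuid* KD replicates 1, 5 and 6. Over all tested genes, 1235 (6.31%) were higher and 473 (2.42%) were lower in *Neuid* KD at an adjusted p under 0.05, while with upper-quartile normalization 1049 were higher and 1259 lower. The 6 markers of neurons in general, among them *Map2* and *Snap25*, summed to between 4370 and 5181 CPM in control and between 4275 and 5243 CPM in *Neuid* KD, and none of them was called by edgeR or DESeq2 (1 had an unadjusted p under 0.05 in edgeR). Of 5 markers of excitatory neurons, *Camk2a* was called higher (log2 fold change 0.38, adjusted p = 2.2e-04) and *Slc17a6* lower (-0.34, adjusted p = 0.0123). In edgeR 4 of the 5 had an unadjusted p under 0.05, and the median log2 fold change was 0.12. The excitatory list summed to between 1512 and 1814 CPM in control and between 1828 and 2020 CPM in *Neuid* KD, without overlap. Of 5 markers of inhibitory neurons edgeR called 0 (2 had an unadjusted p under 0.05) and DESeq2 called *Gad2* lower (-0.14, adjusted p = 0.0405). All 7 astrocyte markers were called higher, and their sum lay between 1648 and 2082 CPM in control and between 2950 and 3609 CPM in *Neuid* KD. Of the 4 markers of oligodendrocyte precursors, *Olig1* and *Olig2* were called higher, and the list summed to between 92.6 and 114 CPM in control and between 246 and 288 CPM in *Neuid* KD. No astrocyte or precursor marker was at 0 in either group, neither sum overlapped between the groups, and the part of this shift in the receptor results below was not tested. In such bulk libraries, fewer cells of a type and less RNA per cell cannot be told apart.

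Among the 9 tested receptor genes, 1 was lower and 1 was higher in *Neuid* KD at an adjusted p under 0.05, beside 2.42% lower and 6.31% higher over all tested genes. *Htr5a*, which encodes the Gi-coupled 5-HT5A receptor, fell to 62.2% of its control mean, and *Htr4*, which encodes the Gs-coupled 5-HT4 receptor, rose to 124%. The other 7 genes did not pass the test. The median log2 fold change of the 9 genes was -0.07, beside -0.03 over all tested genes. With an absolute log2 fold change above 0.5 also required, which 2.44% of all tested genes met as higher and 0.792% as lower, *Htr5a* was left and no receptor gene was called higher.

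**Figure D1:**
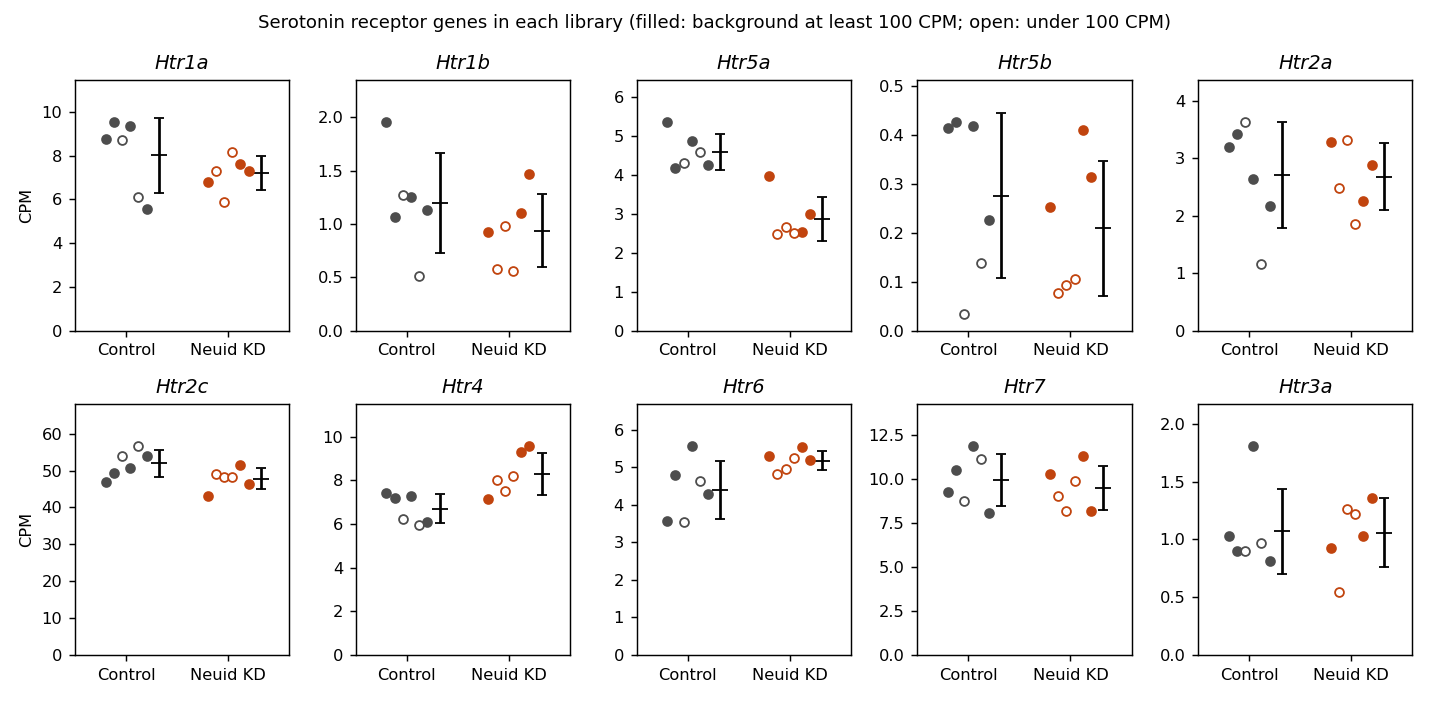
CPM of each of the 10 serotonin receptor genes in every library, with a linear axis from 0 in each panel. Points are the 6 control (grey) and 6 *Neuid* KD (orange) libraries in replicate order, filled where the chemosensory background was at least 100 CPM and open where it was lower, and the bars are the mean and SD. *Htr5a* is the only panel in which the groups do not overlap.

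In order of their level per length in control libraries (CPM divided by the length of the merged exons in kb), *Htr2c* came first at 5.57 ± 0.386 CPM per kb (SD, n = 6 here and below), followed by *Htr7* at 2.92 ± 0.437, *Htr6* at 1.88 ± 0.332, *Htr1a* at 1.79 ± 0.386 and *Htr4* at 1.36 ± 0.136 CPM per kb. *Htr5a* was at 0.854 ± 0.0851, *Htr3a* at 0.514 ± 0.177, *Htr2a* at 0.482 ± 0.166, *Htr1b* at 0.254 ± 0.0987 and *Htr5b* at 0.143 ± 0.0870 CPM per kb. The control libraries of *Htr2c* did not overlap with those of *Htr7*, and those of *Htr4* did not overlap with those of *Htr5a*. All other neighbors in this order had overlapping ranges, so their order is within the spread of the libraries. *Htr2c* made up 35.5% ± 3.97 of the summed level per kb of the 10 genes in control and 33.7% ± 2.01 in *Neuid* KD libraries. The summed level itself was 15.8 ± 1.09 CPM per kb in control and 15.2 ± 0.778 CPM per kb in *Neuid* KD libraries.

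The level per kb of the chemosensory receptor genes of the same library gives a floor for these values. *Htr2c* was between 43.7 and 1288 times this background over the 12 libraries, *Htr5a* between 6.96 and 178 times and *Htr4* between 13.3 and 330 times. At the low end, *Htr1b* was between 1.85 and 59.6 times and *Htr5b* between 1.23 and 14.3 times the background. The lowest of these multiples came from *Neuid* KD replicate 1 for *Htr2c*, *Htr5a*, *Htr1b* and *Htr5b*, a library with 583 CPM of background.

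**Figure D2:**
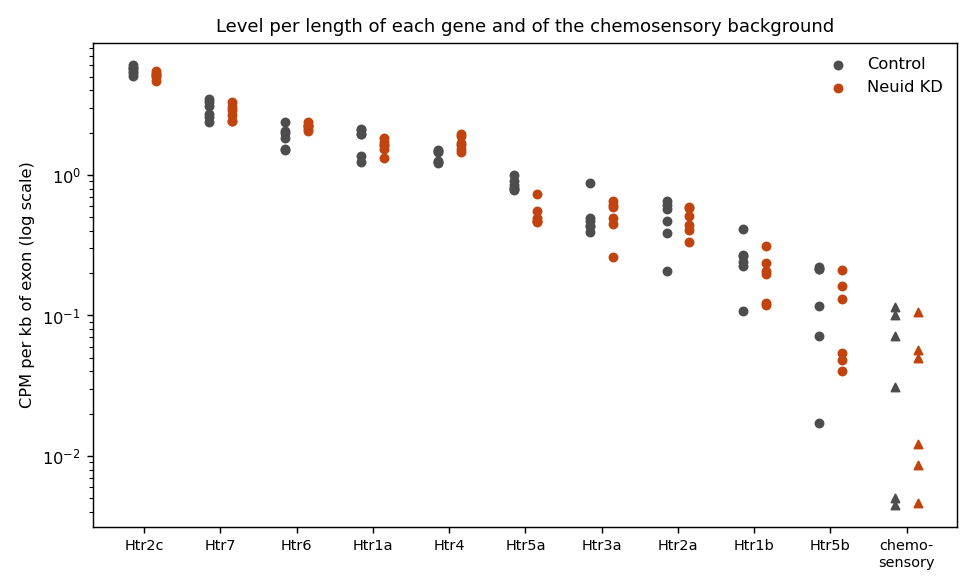
Level per length of each gene in CPM per kb of merged exon, on a log axis, for the 6 control (grey) and 6 *Neuid* KD (orange) libraries. Circles are receptor genes in order of their control mean, from *Htr2c* at 5.57 to *Htr5b* at 0.143 CPM per kb, and triangles are the summed chemosensory receptor genes, which reach 0.114 CPM per kb in the control library with the most background.

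The receptors that act through inhibitory G proteins were *Htr1a*, *Htr1b* and *Htr5a*, and *Htr5b* is described with them as a gene of the same class as *Htr5a*. *Htr5a* (ENSMUSG00000039106) lies on chromosome 5 of GRCm38 (plus strand, 27842149 to 27855088), with 2 merged exons in GENCODE and no overlap with another annotated gene. The 300 bases of RefSeq around its annotated start (GRCm38.p6, chr5:27841697-27841996, plus strand, 250 bases before the start and 50 after it) are shown because *Htr5a* is the receptor gene with the largest change, with CpG dinucleotides in capitals.
Htr5a: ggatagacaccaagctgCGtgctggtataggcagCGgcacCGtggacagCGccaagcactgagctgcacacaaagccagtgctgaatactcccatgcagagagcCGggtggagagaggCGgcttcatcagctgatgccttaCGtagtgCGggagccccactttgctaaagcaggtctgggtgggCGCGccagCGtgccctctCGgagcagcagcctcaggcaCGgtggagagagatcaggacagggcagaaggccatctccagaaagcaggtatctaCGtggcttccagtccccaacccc
This window ends before the start of the GENCODE gene. It holds 14 CpG dinucleotides and 61.3% GC, and 36.3% of the 32851 RefSeq windows of the same length hold at least as many CpG. Windows were examined for 7 of the 10 genes, and *Htr3a*, *Htr4* and *Htr5b* were not among them. This does not show that RefSeq lacks a window for these genes. A search on both strands for the GC box GGGCGG, the CCAAT box CCAAT, the TATA box TATAAA and the cAMP response element half-site TGACG, which 35.7%, 37.4%, 13.6% and 20.8% of all windows hold, gave no match in that of *Htr5a*, which says only that these letters are not in this window. GGGCGG was found in the windows of *Htr1a*, *Htr2a* and *Htr6*, CCAAT in those of *Htr1b* and *Htr2c*, and TGACG in that of *Htr7*.

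The control libraries held *Htr5a* between 4.19 and 5.37 CPM with a median of 4.44 CPM, and the *Neuid* KD libraries held it between 2.48 and 3.96 CPM with a median of 2.60 CPM. Every *Neuid* KD library was below every control library, a separation in this direction that 1.57% of all tested genes showed, and *Neuid* KD replicate 1 was the library closest to the controls. These values rested on 94 to 129 reads per control library and 47 to 72 reads per *Neuid* KD library. The log2 fold change was -0.70 (standard error 0.141, 95% interval -0.998 to -0.40, adjusted p = 0.00329). The study picked out *Htr5a* after calling it in this RNA-seq experiment and also reported it as lower by RT-qPCR. Its direction in these counts is therefore not independent evidence. Within the 5 libraries under 100 CPM of background, the *Neuid* KD libraries lay between 2.48 and 2.67 CPM and the control libraries at 4.30 and 4.58 CPM (log2 fold change -0.83, adjusted p = 0.0125). Within the 7 libraries with more background, the ranges were 2.54 to 3.96 and 4.19 to 5.37 CPM, and the difference did not pass (log2 fold change -0.57, adjusted p = 0.255). When single libraries were omitted the adjusted p stayed between 3.1e-04 and 0.0127, and it was lowest without *Neuid* KD replicate 1, where the log2 fold change was -0.84.

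*Htr1a* encodes the 5-HT1A receptor, which is abundant on hippocampal pyramidal neurons and opens GIRK channels. It was between 5.56 and 9.57 CPM (median 8.74) in control and between 5.90 and 8.18 CPM (median 7.31) in *Neuid* KD libraries. Control replicates 5 and 6 were low and the other 4 control libraries were above all *Neuid* KD libraries, so the groups overlapped. Its log2 fold change of -0.15 (standard error 0.132, 95% interval -0.43 to 0.13) did not pass, with an adjusted p of 0.66.
*Htr1b*, whose product is a terminal autoreceptor and heteroreceptor that limits transmitter release, was between 0.509 and 1.96 CPM (median 1.19) in control and between 0.560 and 1.47 CPM (median 0.954) in *Neuid* KD libraries. With 11 to 38 reads per library the groups overlapped and the interval was wide (log2 fold change -0.36, 95% interval -1.16 to 0.44, adjusted p = 0.744). An exon of the antisense gene D430036J16Rik overlaps *Htr1b* on the other strand, and whether the counting used strand is not given in the sources used here, so reads from both genes may be mixed.

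*Htr5b* encodes the 5-HT5B receptor, known from rodents. It held 8, 10, 1, 9, 3 and 5 reads in control replicates 1 to 6 and 3, 2, 2, 3, 10 and 6 reads in *Neuid* KD replicates 1 to 6. Its level lay between 0.0334 and 0.427 CPM in control and between 0.0776 and 0.410 CPM in *Neuid* KD. Higher values came from the libraries with more background, at 0.226 to 0.427 CPM, and the 5 libraries under 100 CPM of background held 0.0334 to 0.139 CPM. A fit without the filter gave it a log2 fold change of -0.37 with a 95% interval from -2.08 to 1.35 (adjusted p = 0.981), so a difference was not detectable at this depth.

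The Gq-coupled receptors were *Htr2a*, whose product is the target of classical hallucinogens, and *Htr2c*, whose product is a receptor with high activity in the absence of ligand and whose transcript is edited in the brain. *Htr2c* (X chromosome, 146962513 to 147197277, plus strand) was the receptor with the most reads, 512 to 1622 per library. It was between 46.9 and 56.7 CPM (median 52.4) in control and between 43.1 and 51.6 CPM (median 48.2) in *Neuid* KD libraries. All 6 *Neuid* KD libraries were below the control median and 2 of them below every control library, but the groups overlapped. The log2 fold change was -0.12 (standard error 0.0553, 95% interval -0.24 to -0.001) and the adjusted p was 0.26, so that it did not pass over all tested genes. It passed with upper-quartile normalization (-0.18, adjusted p = 0.00667), with 1 factor of unwanted variation in edgeR (-0.14, adjusted p = 0.0359) or DESeq2 (-0.16, adjusted p = 0.00478), with a mean of at least 1 CPM required (-0.14, adjusted p = 0.0406) and within the 5 libraries under 100 CPM of background (-0.22, adjusted p = 0.0147). Within the 7 libraries with more background its log2 fold change was -0.08 (adjusted p = 0.942). The small RNAs annotated within *Htr2c* do not overlap its exons.
*Htr2a* was between 1.16 and 3.64 CPM (median 2.92) in control and between 1.85 and 3.32 CPM (median 2.68) in *Neuid* KD libraries. The lowest and the highest value both belonged to control libraries, so the *Neuid* KD libraries lay within the control range. Its change was -0.03 on the log2 scale, with a 95% interval from -0.55 to 0.50 (adjusted p = 0.977).

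**Figure D3:**
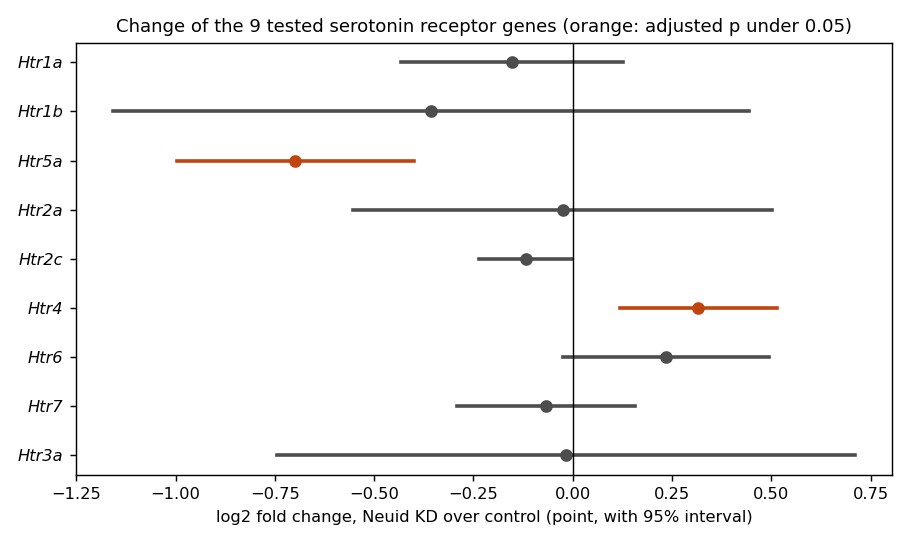
log2 fold change of *Neuid* KD over control for the 9 tested serotonin receptor genes, as points with 95% intervals, from edgeR's quasi-likelihood fit over 12 libraries. Orange marks an adjusted p under 0.05, which *Htr5a* (-0.70) and *Htr4* (0.32) reached. The intervals are widest for *Htr1b* and *Htr3a*, which had 11 to 39 reads per library.

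The receptors that raise cAMP were *Htr4*, *Htr6* and *Htr7*. *Htr4* (ENSMUSG00000026322) encodes the 5-HT4 receptor, which increases the excitability of hippocampal pyramidal neurons, and is annotated on chromosome 18 (plus strand, 62324204 to 62496577) with 10 merged exons and no overlap with another gene. It was between 5.97 and 7.43 CPM (median 6.69) in control and between 7.16 and 9.58 CPM (median 8.12) in *Neuid* KD libraries. *Neuid* KD replicate 1, the smallest library, lay within the control range, and the other 5 *Neuid* KD libraries were above every control library. The log2 fold change was 0.32 (standard error 0.0936, 95% interval 0.12 to 0.51, adjusted p = 0.0447). This rise was close to the threshold, and leaving out 1 library ended the call in 9 of 12 cases. The adjusted p was 0.0505 without control replicate 2, 0.0796 without control replicate 3, 0.0825 without control replicate 5 and 0.0967 without control replicate 6. It was 0.0512 without *Neuid* KD replicate 1, 0.0784 without replicate 2, 0.0784 without replicate 4, 0.18 without replicate 5 and 0.174 without replicate 6. The log2 fold change stayed between 0.24 and 0.35 in all 12 cases. It was 0.34 (adjusted p = 0.3125) within the 7 libraries with at least 100 CPM of background and 0.35 (adjusted p = 0.169) within the 5 under it. On all 12 libraries the call was also lost with RLE size factors (adjusted p = 0.0571), upper-quartile normalization (0.154), no filter on low counts (0.097), a mean of at least 1 CPM required (0.0659), libraries thinned to the smallest (0.0633) and the replicate block (0.0949). It held with DESeq2 with and without a factor of unwanted variation (adjusted p = 0.0105 and 0.0179), and in edgeR with that factor (0.012), with the background as a covariate (0.0148) and with GC and length offsets (0.036).

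*Htr6*, whose product is found mostly in the forebrain and on neuronal primary cilia, was between 3.54 and 5.57 CPM (median 4.46) in control and between 4.81 and 5.54 CPM (median 5.21) in *Neuid* KD libraries. All 6 *Neuid* KD libraries were above the control median, but control replicate 4 was the highest of the 12 libraries. The log2 fold change of 0.24 (standard error 0.123, 95% interval -0.02 to 0.50) did not pass (adjusted p = 0.333).
*Htr7*, whose product is expressed in the hippocampus and thalamus, was between 8.05 and 11.9 CPM (median 9.87) in control and between 8.16 and 11.3 CPM (median 9.45) in *Neuid* KD libraries. Of the *Neuid* KD libraries 3 were above and 3 below the control median. Its log2 fold change was -0.07, with a 95% interval from -0.29 to 0.16 (adjusted p = 0.837).

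*Htr3a* was the only subunit of the serotonin-gated channel among the 10 genes, and in the hippocampus it marks a class of interneurons. It was between 0.814 and 1.81 CPM (median 0.936) in control and between 0.543 and 1.36 CPM (median 1.12) in *Neuid* KD libraries. The ranges overlapped in part, with control replicate 4 above and *Neuid* KD replicate 2 below all other libraries. On the log2 scale the change was -0.02, with a 95% interval from -0.75 to 0.71 (adjusted p = 0.988), an interval that 11 to 39 reads per library left wide. Of 7 markers of this interneuron class, *Cck*, a neuropeptide that hippocampal pyramidal neurons also express, was called higher (log2 fold change 0.79, adjusted p = 9.8e-07). The other 6 were not called by edgeR, while DESeq2 also called *Reln* lower (log2 fold change -0.25, adjusted p = 0.00726). In edgeR 3 of the 7 had an unadjusted p under 0.05. Among the uncalled markers, *Vip* had a log2 fold change of -0.63 (95% interval -1.24 to -0.02, adjusted p = 0.244). The antisense gene Gm32335 overlaps *Htr3a* but not its exons.

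**Figure D4:**
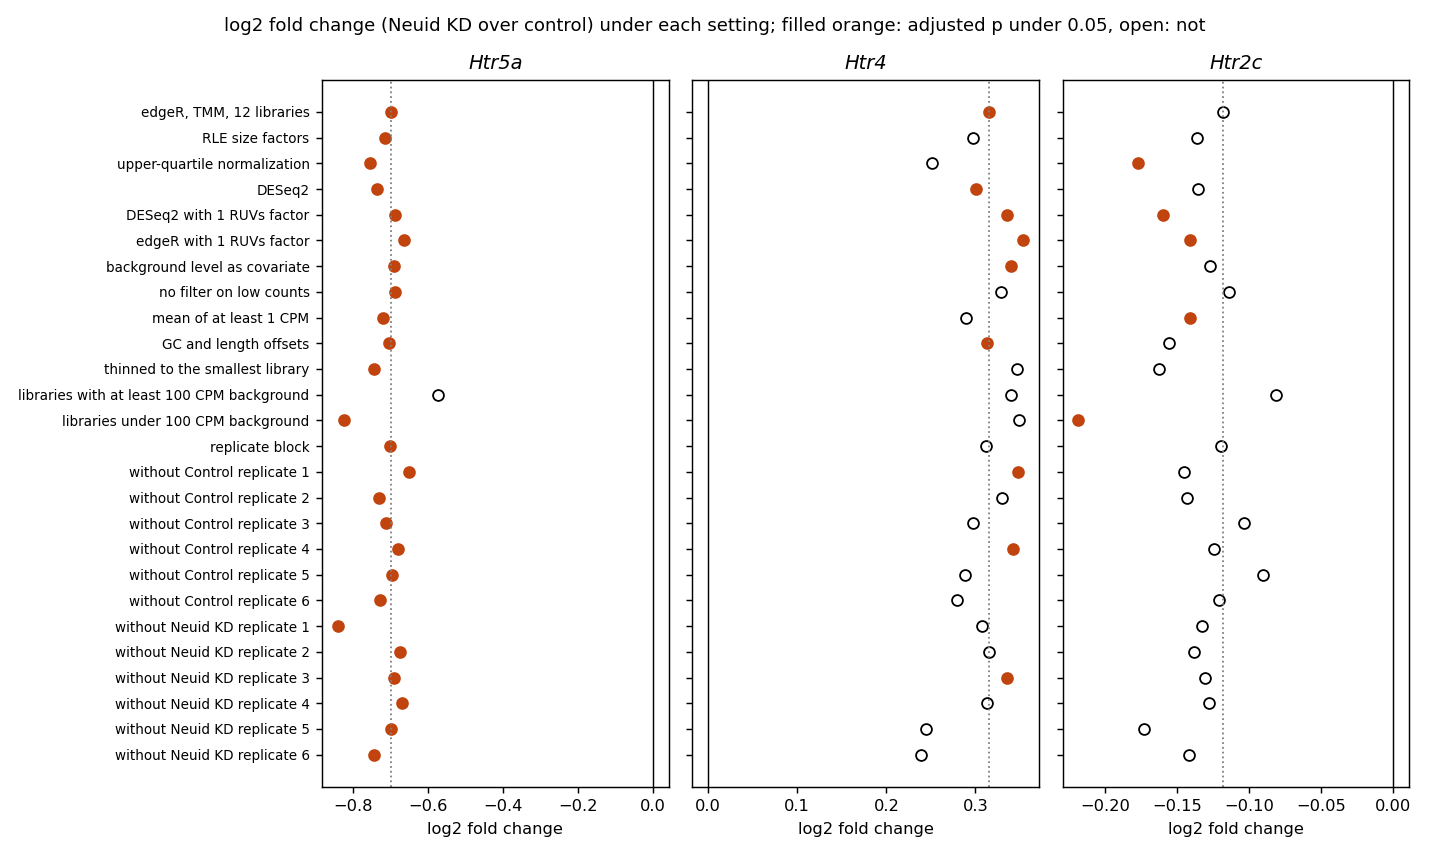
log2 fold change of *Neuid* KD over control for *Htr5a*, *Htr4* and *Htr2c* under every setting, with filled orange points for an adjusted p under 0.05 and open points for others. The dotted line is the value from edgeR with TMM on 12 libraries and the horizontal scales differ between panels. *Htr5a* is open only for the libraries with at least 100 CPM of background, *Htr4* is open for 17 of 25 alternatives and *Htr2c* for 20 of 25.

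Further genes of the serotonin system were counted in lists that were chosen with earlier results of these data known. Their counts stand beside the 6.31% called higher and 2.42% called lower over all tested genes. Of the 4 other receptor genes listed, *Htr1d*, *Htr1f*, *Htr2b* and *Htr3b*, 2 were tested and neither was called by edgeR (0 had an unadjusted p under 0.05). DESeq2 did not call *Htr1f* and gave no adjusted p for *Htr1d*. *Htr1f* had a log2 fold change of -0.22 (95% interval -0.87 to 0.44) and *Htr1d* of -0.56 (95% interval -1.90 to 0.78). Of the 9 genes for synthesis, transport and breakdown of serotonin, 8 were tested and 0 were called by edgeR or DESeq2 (1 had an unadjusted p under 0.05 in edgeR). DESeq2 gave no adjusted p for *Tph2*, *Ddc*, *Slc6a4* and *Slc22a3*, so it could not call them. Among the 8 tested genes, *Slc29a4*, the low-affinity plasma membrane monoamine transporter, had 123 ± 7.67 CPM in control cultures and 115 ± 5.52 CPM after *Neuid* KD. The degrading enzyme *Maoa* was at 37.3 ± 2.73 and 42.1 ± 4.40 CPM. The markers of serotonin-producing neurons *Tph2* and *Slc6a4* were near 1 CPM, with control means of 0.875 and 1.15 CPM and *Neuid* KD means of 0.769 and 0.695 CPM.

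Downstream of the Gi-coupled receptors, 1 of 8 tested genes was called higher and 1 lower (median log2 fold change -0.06), against 6.31% and 2.42% of all tested genes. *Gnai2*, an inhibitory G protein subunit that is also widely expressed outside neurons, rose from 155 ± 11.6 to 194 ± 10.5 CPM (log2 fold change 0.33, adjusted p = 7.8e-04). *Kcnj9*, which encodes the GIRK3 channel subunit, fell from 18.8 ± 1.81 to 14.1 ± 1.64 CPM (log2 fold change -0.41, adjusted p = 0.0031). The subunits GIRK1 and GIRK2 did not pass, with log2 fold changes of -0.12 for *Kcnj3* and -0.10 for *Kcnj6*, although DESeq2 called *Kcnj3* lower (-0.14, adjusted p = 0.0466).
Downstream of the Gs-coupled receptors, 1 of 11 tested genes was called higher and 1 lower (median -0.08), again against 6.31% and 2.42% of all tested genes, and DESeq2 also called 2. The calcium-stimulated adenylyl cyclase *Adcy1* fell from 239 ± 14.2 to 198 ± 25.1 CPM (log2 fold change -0.27, adjusted p = 0.0338), and the cyclase *Adcy2* rose from 67.3 ± 3.14 to 76.3 ± 5.27 CPM (log2 fold change 0.18, adjusted p = 0.0389). *Gnas*, the stimulatory subunit itself, had a log2 fold change of -0.01.
Downstream of the Gq-coupled receptors, 1 of 7 tested genes was called higher (median 0.04), where 6.31% of all tested genes were. This was the phospholipase *Plcb1*, which rose from 188 ± 7.88 to 224 ± 19.9 CPM (log2 fold change 0.25, adjusted p = 0.0101). DESeq2 called a second phospholipase, *Plcb3*, higher (log2 fold change 0.37, adjusted p = 0.0124), which did not pass in edgeR (0.39, adjusted p = 0.0574).

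Of 8 genes whose products bind serotonin receptors, 2 were called by edgeR and 2 by DESeq2, and both edgeR calls were higher (median 0.00), where 6.31% of all tested genes were called higher and 2.42% lower. *Mpdz*, a PDZ scaffold that binds the 5-HT2C receptor, rose from 41.6 ± 2.14 to 56.1 ± 4.26 CPM (log2 fold change 0.43, adjusted p = 3.5e-05). *Fyn*, a kinase that binds the 5-HT6 receptor, rose from 215 ± 15.4 to 267 ± 15.4 CPM (log2 fold change 0.31, adjusted p = 0.00137). *S100a10*, also called p11, which brings 5-HT1B and 5-HT4 receptors to the cell surface, had a log2 fold change of -0.06 (95% interval -0.26 to 0.15). *Snx27*, a sorting protein for the 5-HT4 receptor, was at 0.17 (adjusted p = 0.142), and *Ric3*, a chaperone of the 5-HT3 receptor, was at 0.07 (adjusted p = 0.699). *Cdk5*, another kinase bound by the 5-HT6 receptor, was at -0.09, and the arrestins *Arrb1* and *Arrb2* were at -0.06 and -0.10, and none of these 3 passed. Several of these genes are also expressed in glia, whose markers rose in the same libraries, and the part of that rise in their values was not tested.

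**Figure D5:**
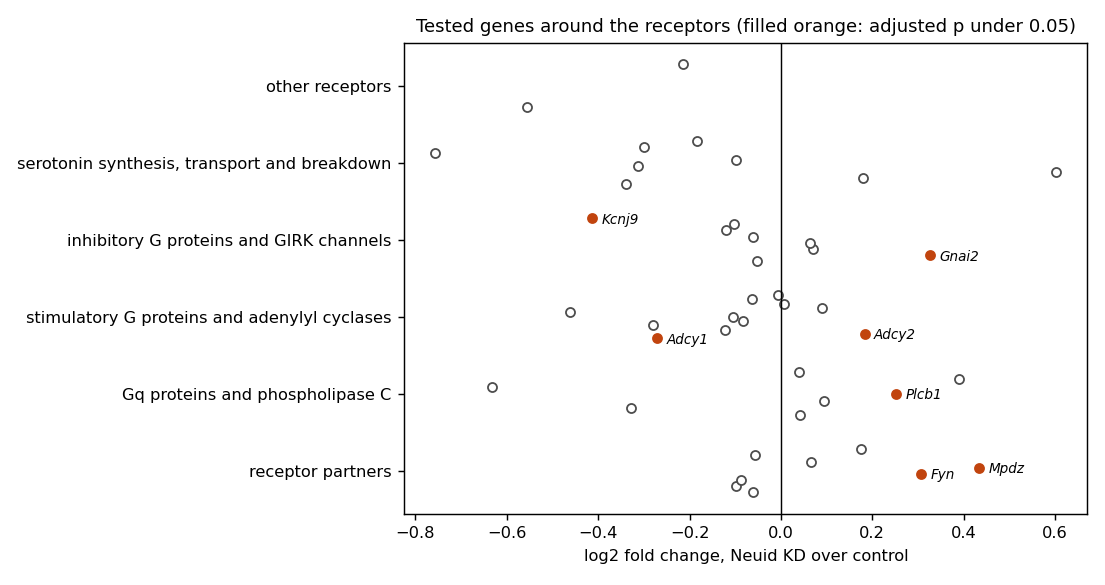
log2 fold change of *Neuid* KD over control for each tested gene of 6 lists around the receptors, with 1 point per gene. Filled orange points have an adjusted p under 0.05 and are named. No gene of the lists of other receptors and of serotonin synthesis, transport and breakdown is called, and the 7 called genes of the other lists lie between -0.41 (*Kcnj9*) and 0.43 (*Mpdz*).

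The genes whose log2 CPM over the 12 libraries was most like that of *Htr5a*, among tested genes averaging 1 CPM or more, were *Trf* (transferrin, Pearson r = 0.95), *Psmb8* (an immunoproteasome subunit, r = 0.94) and *Dnah5* (an axonemal dynein heavy chain, r = 0.94). All 3 were lower in *Neuid* KD, with log2 fold changes of -1.62, -1.60 and -0.92. After subtraction of the group means their r was 0.80, 0.77 and 0.72. For *Htr4* they were *Gm15663* (r = 0.91), *Tcf7l2* (a TCF/LEF transcription factor, r = 0.91) and *Bfar* (r = 0.91), with log2 fold changes of 0.57, 0.86 and 0.16, and within groups their r was 0.81, 0.88 and 0.80. These genes were picked for their likeness out of all that were eligible, and the 12 points share the difference between the groups and the background of each library, so the values are a description only.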

How the data were processed

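RNA-seq was performed on 12 cultures, and each library was assigned to control or *Neuid* KD from its label. The authors used STAR to align the reads to mm10 (GRCm38) and featureCounts to assign them to genes, and the deposited values are raw counts. Symbols, positions, exon lengths and GC content came from GENCODE on GRCm38, and 55230 of 55471 genes were matched. Promoter windows came from RefSeq.

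Counts were analyzed in R 4.3.3 with edgeR 4.0.16 (filterByExpr, TMM, quasi-likelihood test, group as the only term, Benjamini-Hochberg adjustment over all tested genes, both directions), and genes with an adjusted p under 0.05 were called. Intervals are at the 95% level from the same fit. The script was tested on simulated data. The alternatives covered the normalization, DESeq2 1.42.0, factors of unwanted variation (1 RUVs factor), the background as a covariate, filters, GC and length offsets, depth, the fold-change threshold, libraries split at 100 CPM of background, each library left out, and the replicate number as a block. Figures were drawn with matplotlib 3.10.9.

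The members, lists and alternatives were chosen with earlier results of these data known. Named genes were the 10 receptor genes, at most 3 called genes per list with the largest change, direct receptor partners, the 3 genes most similar to each called receptor, and *Neuid*. Further list members are named as examples and were chosen after their values were seen. No 2 libraries of a group agreed within sampling noise (smallest chi-square per degree of freedom 3.40), and no library was left out. The depth of 11152556 to 30914714 counted reads per library limits the precision for the scarce receptors.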

Additional observations from a re-analysis of the deposited data

Results flagged for a closer look

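The 2 groups of each of the 10 genes were examined for a library apart from the rest, 20 in all, of which chance flags about 1 in 20. Among the *Neuid* KD libraries, replicate 1 held *Htr5a* at 3.96 CPM, apart from the others at 2.48 to 2.98 CPM. It was the smallest library and held 583 CPM of chemosensory background. Among the control libraries, replicate 4 held *Htr3a* at 1.81 CPM (39 reads), apart from the others at 0.814 to 1.03 CPM.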

How the results depend on the processing

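*Htr5a* kept its direction in all 25 alternatives and its call in 24, with log2 fold changes from -0.84 to -0.57 and adjusted p from 6.0e-06 to 0.255. The exception was the 7 libraries with at least 100 CPM of background (-0.57). *Htr4* kept its direction in all 25 (adjusted p from 0.0105 to 0.3125) and its call in 8. It was not called with RLE size factors (0.30), upper-quartile normalization (0.25), no filter (0.33), a mean of at least 1 CPM (0.29), thinned libraries (0.35), at least 100 CPM of background (0.34), under 100 CPM (0.35) or the replicate block (0.31, adjusted p = 0.0949), and without 1 library it was between 0.24 and 0.35. The receptor genes called thus numbered 1 (0 higher) with RLE, no filter, thinning, the replicate block or the fold-change threshold. None was called, so 0 higher and 0 lower, with at least 100 CPM of background. Upper-quartile normalization, a mean of at least 1 CPM and under 100 CPM gave 0 higher and 2 lower, and a RUVs factor in DESeq2 or edgeR gave 2 lower, *Htr2c* being the added gene. Without 1 library, 1 to 2 were called, 0 to 1 of them higher.

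Small uncalled values changed sign, for *Htr2a* with a RUVs factor in edgeR (0.00369), under 100 CPM (0.00668), with the replicate block (0.0307) and without 1 library (-0.18 to 0.0898). For *Htr3a* this happened with a RUVs factor in DESeq2 (0.0315) or edgeR (0.0511), the background covariate (0.0191), no filter (0.00123), GC and length offsets (0.0355), thinning (0.20), under 100 CPM (0.0793) and without 1 library (-0.13 to 0.20), and for *Htr7* with at least 100 CPM (0.0124). The cause was not tested for any of these changes. The replicate numbers gave no steady pairing, since deviations from the group means correlated between -0.64 and 0.77 over the 6 numbers. Control replicates 1 and 3 correlated best with the *Neuid* KD library of their own number (0.77 and 0.75), and the other control replicates did not. The libraries also differed in background, so this check cannot tell whether libraries shared a litter or preparation. Counts of 1 to 39 reads limit *Htr1b*, *Htr3a* and *Htr5b*.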
